A study of Mus musculus with 18 samples.

Results

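The cytosolic ribosomal protein genes were examined as a reference group of genes that every growing cell transcribes. They were taken as the protein-coding genes on the autosomes of the GENCODE vM21 annotation (mm10) whose symbol is Rpl, Rps or Rplp with a number and at most 1 further letter a, x or l. The rule gave 75 of 20807 autosomal protein-coding genes, of which 29 code for proteins of the small subunit (Rps), 43 for proteins of the large subunit (Rpl) and 3 for the ribosomal stalk (Rplp0, Rplp1 and Rplp2). No measured value was used to choose them. Another 4 genes that match the symbols lie on the X chromosome (Rps4x, Rpl10, Rpl36a and Rpl39) and were kept apart.

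Bone marrow-derived macrophages (BMDM) from WT mice, from mdx mice, which carry a mutation in the dystrophin gene, and from mdxTLR4-/- mice, which are mdx mice that also lack the receptor TLR4, were profiled without treatment by ChIP-seq for H3K27ac, a histone mark of active promoters and enhancers, and for H3K27me3, a mark of Polycomb repression. The labels give the strain as C57BL6 for WT, Dmdmdx-4Cv for mdx and Bl6/Bl10 for the samples labelled mTLR4, which were read as mdxTLR4-/-. The H3K27me3 libraries were 2 per genotype, labelled 12 to 13 weeks of age for WT, 14 to 15 for mdx and 16 to 17 for mdxTLR4-/-, with 2 input libraries per genotype labelled 6 to 11 weeks. The H3K27ac libraries were 2 for WT (19 to 20 weeks), 2 for mdx (21 to 22 weeks) and 1 for mdxTLR4-/- (23 weeks), with 1 input library. The labelled ages run from 6 to 23 weeks over the 18 libraries. In listed order, every library is labelled 1 week older than its predecessor. Whether these labels are true ages of the mice could not be checked. The paper puts its WT, mdx and TLR4-/- mice on a C57BL/6J background, whereas the mTLR4 label reads Bl6/Bl10. As labelled, age, strain and genotype change together and cannot be told apart. The authors merged the replicates before they called peaks, so each mark and genotype has 1 peak list. The lists hold no replicate spread, and no p-value can be given for a difference between genotypes. Each peak carries a count of ChIP reads that is scaled neither for depth nor for length.

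Most ribosomal proteins are made in equal numbers for each ribosome, and their genes are short and are transcribed at high rates from CpG-rich promoters. Many of their transcripts start at a C within a run of pyrimidines, the terminal oligopyrimidine (TOP) tract, through which mTOR signalling controls their translation. A few members are paralogs: Rpl3l is known from striated muscle, Rpl10l and Rpl39l from the testis, and Rps27l as a target gene of p53.

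The promoter letters come first, since the marks were measured around these starts. RefSeq promoter sequences (GRCm38.p6, 250 bases before to 50 from the start) were found for 55 of the 75 members and for 15703 of the 20807 genes. No entry was used for 20 members, among them Rpl30, Rplp1 and Rps29. The 30 bases around the start, 15 before it and 15 from it, are shown for the 4 paralogs, for 2 stalk genes, and for the members with the most or the fewest H3K27ac reads in WT that had an entry at most 281 bp from the GENCODE start. Capitals mark the run of pyrimidines that holds the start, and a sequence without capitals starts at a purine.
Rps27l (chr9:66946071-66946100, plus strand): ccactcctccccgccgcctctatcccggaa
Rpl3l (chr17:24727811-24727840, plus strand): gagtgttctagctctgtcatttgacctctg
Rpl10l (chr12:66284387-66284416, minus strand): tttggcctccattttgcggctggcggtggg
Rpl39l (chr16:10170213-10170242, plus strand): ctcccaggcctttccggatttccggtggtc
Rplp0 (chr5:115559452-115559481, plus strand): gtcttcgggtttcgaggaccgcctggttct
Rplp2 (chr7:141447636-141447665, plus strand): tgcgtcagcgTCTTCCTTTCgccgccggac
Rpl12 (chr2:32961697-32961726, plus strand): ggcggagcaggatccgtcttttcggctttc
Rps9 (chr7:3704026-3704055, plus strand): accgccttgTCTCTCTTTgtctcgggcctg
Rpl19 (chr11:98026695-98026724, plus strand): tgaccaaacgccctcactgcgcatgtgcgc
Rpl11 (chr4:136053379-136053408, minus strand): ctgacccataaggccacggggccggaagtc
Rpl26 (chr11:68901551-68901580, plus strand): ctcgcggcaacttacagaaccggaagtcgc
Rps26 (chr10:128626492-128626521, minus strand): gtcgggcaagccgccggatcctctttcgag
Rplp2 started at a C inside a run of 10 pyrimidines and Rps9 at a T inside a run of 9, while none of the 4 paralogs started at a pyrimidine. A C at the start within a run of at least 5 pyrimidines was found in 13 of 55 members (23.6%) and in 4.90% of all 15703 promoters. With starts at most 50 bp from the GENCODE start, it was found in 5 of 36 members (13.9%) and in 5.26% of 10285 promoters. The count reads only the annotated base, which RefSeq and GENCODE placed a median of 30 bp apart for the members.

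Of the 7 motifs searched, on both strands and without removing overlaps, CCGGAAG, a core that ETS family factors bind, is described first. It was held by 22 of 55 members (40%), by 12.6% of all promoters, and by 22.0% of the 3577 promoters of genes with an H3K27ac peak in all 3 lists. With starts at most 50 bp from the GENCODE start, it was held by 12 of 36 members (33.3%) and 13.9% of all promoters. For 5 of the members shown above, 10 bases to each side of the match are printed on the strand of the gene, with the match in capitals, which reads CTTCCGG where the other strand holds it.
Rps27l (chr9:66946085-66946111, plus strand): cgcctctatcCCGGAAGttgctgaggg
Rpl11 (chr4:136053371-136053397, minus strand): ggccacggggCCGGAAGtctccctctc
Rpl26 (chr11:68901560-68901586, plus strand): acttacagaaCCGGAAGtcgcgtgtag
Rpl19 (chr11:98026661-98026687, plus strand): cttagcgtgaCTTCCGGctacccagag
Rplp2 (chr7:141447533-141447559, plus strand): aaatgtcttcCTTCCGGtgcacccttt
AAGATGGC, a core bound by YY1, was held by 4 of 55 members (7.27%) against 3.25% of all promoters, TGCGCA, a stretch of the NRF1 motif, by 10 (18.2%) against 10.4%, the E-box CACGTG by 5 (9.09%) against 8.11%, and the Sp1 box GGGCGG by 31 (56.4%) against 48.8%. Among the 3577 promoters of genes with an H3K27ac peak in all 3 lists, 64.6% held GGGCGG and 10.4% CACGTG, both above the shares of the members. AAGATGGC was held by 5.23% of them and TGCGCA by 14.6%, which lie between the shares of all promoters and of the members. Fewer members than genes at large held the TATAAA box, with 3 (5.45%) against 12.9%, or the CCAAT box, with 16 (29.1%) against 38.4%. In the same 3577 promoters the shares were 6.21% for TATAAA, near that of the members, and 39.8% for CCAAT. CpG dinucleotides numbered 21 in the median member promoter, from 2 in Rpl3l to 35, and 15 in the median of all promoters. The genes with an H3K27ac peak in all 3 lists had a median of 22 CpG, near that of the members. The 6 members with an entry and no H3K27ac peak in any list had a median of 13.5.

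H3K27ac peaks lay near the start of most members in every genotype. A peak within 5 kb of the start was present at 63 of 75 members in the WT list (84%), at 54 in the mdx list (72%) and at 51 in the mdxTLR4-/- list (68%). Of all autosomal protein-coding genes, 32.9% (WT), 28.3% (mdx) and 30.4% (mdxTLR4-/-) had such a peak. The start itself lay under a peak at 53, 48 and 43 members in the same order, against 24.7%, 21.2% and 21.7% of all genes. In all 3 lists together, 45 members held a peak (60%), against 21.8% of all genes, and 9 held none in any list (12%), against 60.4%. By subunit, in WT, 24 of 29 small subunit genes and 36 of 43 large subunit genes had a peak, and all 3 stalk genes did.

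**Figure D1:**
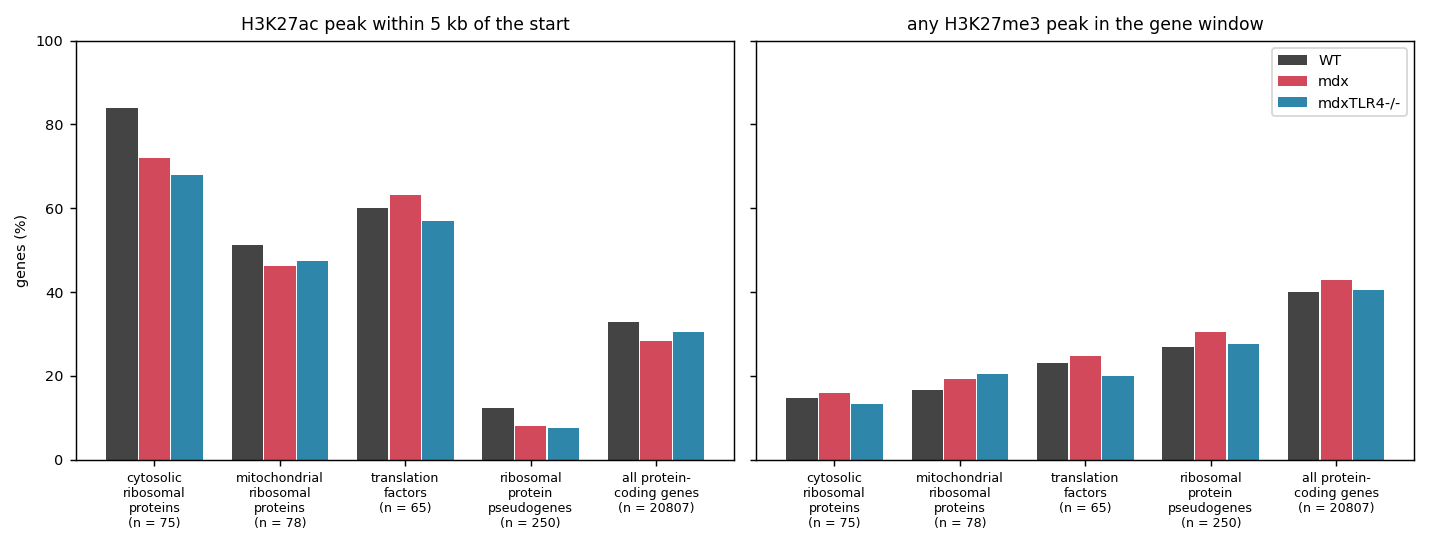
Share of genes (vertical axis, percent) with an H3K27ac peak within 5 kb of the start (left) or with any H3K27me3 peak in the gene window (right), for 5 gene lists and the 3 merged lists of each mark (WT grey, mdx red, mdxTLR4-/- blue). The 75 cytosolic ribosomal protein genes have the highest H3K27ac bars, 84% in WT, 72% in mdx and 68% in mdxTLR4-/-, and low H3K27me3 bars of 14.7%, 16.0% and 13.3%.

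The peaks sat on the start. Coverage was highest in the 200 bp bin centred 100 bp downstream of it, where the WT list covered 74.7% of members, the mdx list 65.3% and the mdxTLR4-/- list 57.3%. The same bin was the highest for 8180 other genes chosen for an H3K27ac peak in at least 1 list, at 62.4%, 54.0% and 56.2%. The members were not chosen in this way, and 9 of the 75 had no H3K27ac peak in any list. Members without a peak lower the members' shares, and such genes were left out of the other set. The shares are therefore not like for like, and their nearness in mdxTLR4-/- is not read further. At 1900 bp upstream 10.7%, 5.33% and 1.33% of members were covered, and at 1900 bp downstream 16.0%, 12.0% and 8.00%. Of the 8180 other genes, 11.4%, 8.50% and 6.65% were covered at 1900 bp upstream, and 18.6%, 14.3% and 12.5% at 1900 bp downstream. Among members with the start under a peak in all 3 lists, the part downstream of the start was the longer one at 19 of 32 in WT (59.4%) and at 22 of 32 in both other lists (68.8%), against 62.0%, 61.9% and 62.8% of the 2960 genes of the same kind.

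**Figure D2:**
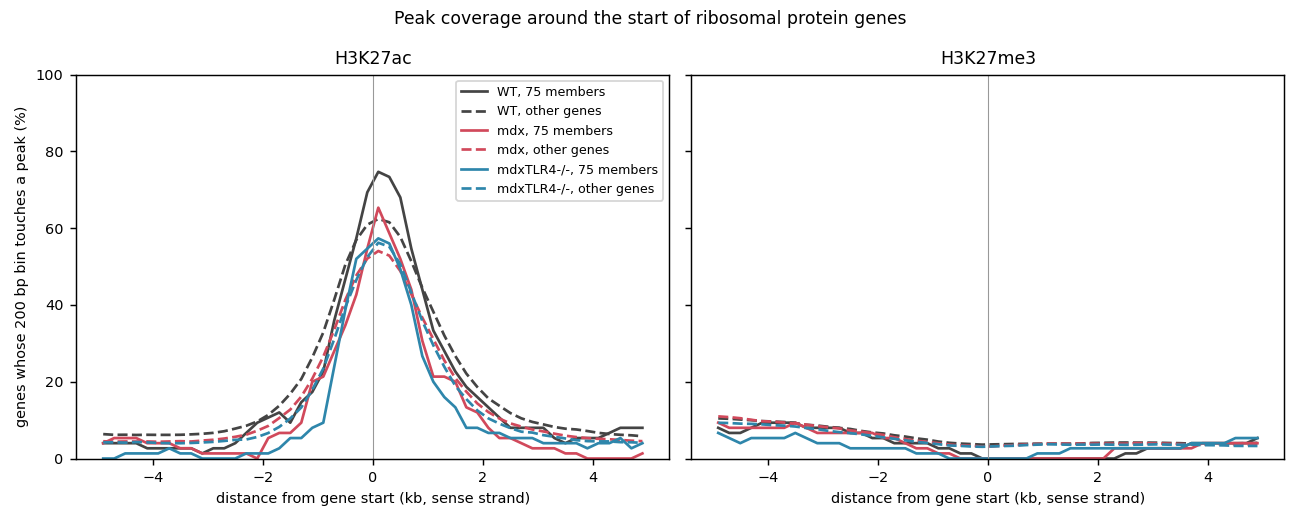
Percent of genes (vertical axis) whose 200 bp bin at a given distance from the gene start (horizontal axis, kb along the sense strand) touches a peak of H3K27ac (left) or H3K27me3 (right), for the 75 members (solid) and for 8180 other protein-coding genes chosen for having an H3K27ac peak in at least 1 list (dashed). H3K27ac at the members peaks at the start, at 74.7% in WT, and H3K27me3 falls to 0 around it.

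Markers of the labelled cell type were present. All 12 macrophage genes examined, among them Spi1, Adgre1, Cd68 and Lyz2, had an H3K27ac peak in each list, with 15 to 122 reads (WT), 9 to 159 (mdx) and 6 to 95 (mdxTLR4-/-). Of 19 markers of T cells, B cells, neutrophils, fibroblasts and muscle, 3 had a peak in WT (Cd4 with 9 reads, Cd79a with 11 and Acta1 with 6) and none had one in the other lists.

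The members were not rich in H3K27ac reads for genes with a peak. Members with a peak held a median of 16 reads within 5 kb in WT (range 6 to 56), 14 in mdx (6 to 47) and 11 in the third list (5 to 31), while all genes with a peak held 16, 14 and 12. At starts under a peak in all 3 lists, the median peak of the 32 members held 17, 12.5 and 11 reads over 2.0, 1.9 and 1.4 kb. The 2960 genes of the same kind held 23, 18 and 16 reads over 2.4, 2.2 and 1.8 kb. The peaks over member starts were thus smaller than those over the starts of such genes. The smallest peaks of each H3K27ac list held 5 reads and the median peak over the whole list 10, 10 and 8 reads, so that many members lay near the level at which a peak is called at all.

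Rpl12, whose protein lies at the base of the stalk, had the most reads in WT, 56, with 26 in mdx and 8 in mdxTLR4-/-. Of its WT reads, 44 came from a peak that begins 4242 bp downstream of the start, and the peak over the start held 12. All 26 mdx reads of Rpl12 came from a peak that begins 4842 bp downstream, and no mdx peak covered the start. Rps9, a protein of the body of the small subunit, followed with 54, 33 and 31 reads in the order WT, mdx, mdxTLR4-/-. Rpl30, of the large subunit, had 53, 42 and 31 reads, all in 1 peak over the start, and Rpl18 had 51, 47 and 30. In reads within 5 kb these 4 genes stood apart from the other members in WT, where the next, Rps29 and Rpl19, had 33 reads each. By the peak over the start, only Rpl30 and Rpl18 did. All 4 were named for their WT reads, so the order of the 3 lists in them is not read further.

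At the other end, 12 members had a WT peak with fewer than 10 reads. Rps26, which lies where mRNA leaves the small subunit, had 6 reads in WT and no peak in the others. Rpl11, which together with Rpl5 binds and inhibits Mdm2, had 7, 10 and 12 reads, and Rpl26, at the exit of the peptide tunnel, had 7, 9 and 6. Rpl11 and Rpl26 thus held a peak within 5 kb in every list, with WT read counts below the median of 16. The mdxTLR4-/- peak of Rpl26 begins 2418 bp downstream of its start.

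**Figure D3:**
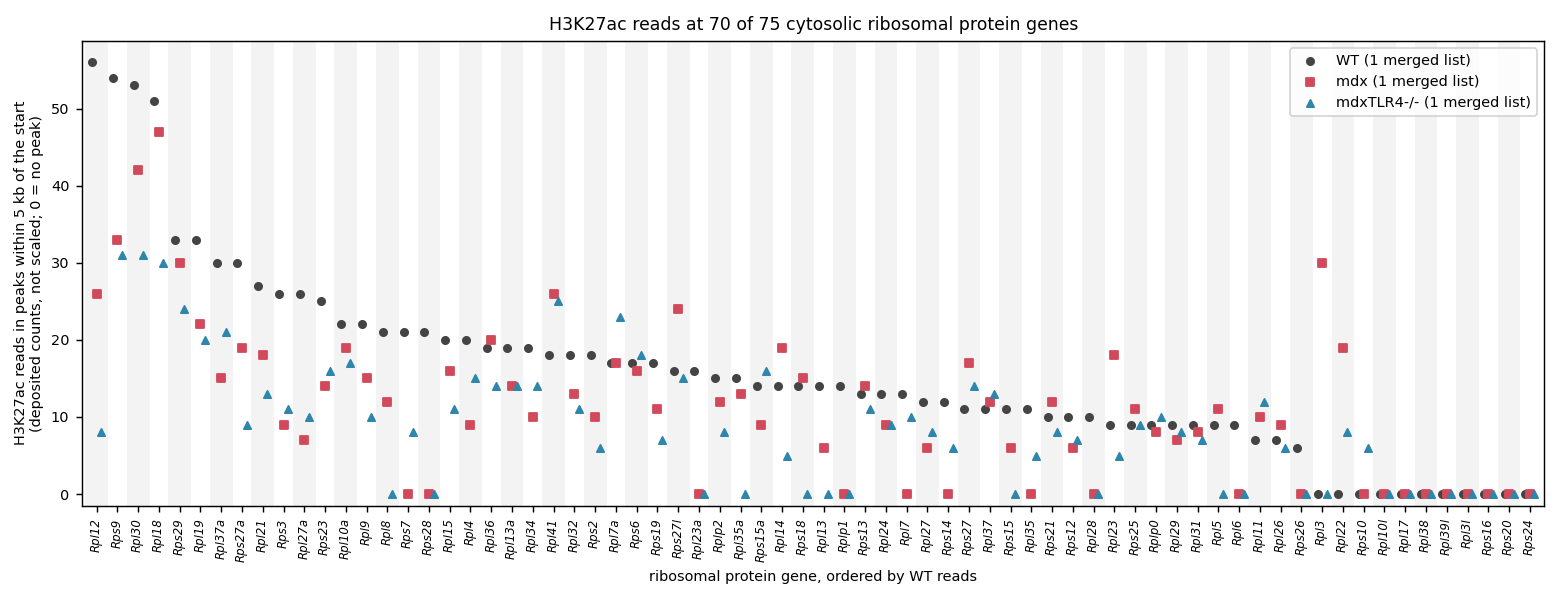
H3K27ac reads in peaks within 5 kb of the start (vertical axis, deposited counts that are not scaled, with 0 for no peak) for 70 of the 75 members, ordered by WT reads along the horizontal axis, with 1 symbol for each merged list (WT circles, mdx squares, mdxTLR4-/- triangles). Rpl12, Rps9, Rpl30 and Rpl18 lie between 51 and 56 reads in WT, and the last 8 genes shown have no peak in any list.

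The stalk genes code for the proteins that recruit elongation factors to the ribosome. Rplp0 had 9 reads in WT, 8 in mdx and 10 in the mdxTLR4-/- list. Rplp2 had 15, 12 and 8 reads. Rplp1 had 14 reads in WT and no peak within 5 kb in the other lists, where the nearest peaks were 427259 bp (mdx) and 50459 bp (mdxTLR4-/-) away. Rplp0 and Rplp2 were therefore marked in every list and Rplp1 in WT alone.

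Of the 4 paralogs, Rps27l was the one with H3K27ac, and its start lay under a peak of 16 reads in the WT list, 24 in mdx and 15 in mdxTLR4-/-. Rpl3l, which replaces Rpl3 in striated muscle, had no peak within 5 kb in any list, the nearest ending 6420 bp away in WT. Rpl10l, a gene of 1 exon, had its nearest peak 126400 bp away in WT, and Rpl39l 265775 bp away. None of the 4 had any H3K27me3 in its window, so the 3 without H3K27ac carried neither mark. The other 71 members had H3K27ac in 62 (WT), 53 (mdx) and 50 (mdxTLR4-/-) cases.

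Besides Rpl3l, Rpl10l and Rpl39l, the members without H3K27ac in any list included Rpl17 and Rpl38 of the large subunit and Rps16, Rps20 and Rps24 of the small subunit, the last 3 named after their values were seen. Rps16 had its nearest peak 9652 bp away in WT, and Rps20 70465 bp away. In Rps24 the start of Polr3a, a subunit of RNA polymerase III, lies 67 bp away, and no peak covered either. Rpl17 and Rpl38 were the members of this set with H3K27me3 in the window.

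The remaining 21 members had a peak in 1 or 2 lists. Among them 7 lacked one in mdxTLR4-/- alone, 4 in mdx alone, and 7 in both, and Rpl22, Rpl3 and Rps10 lacked one in WT. A peak in WT and not in mdx was found at 11 members (14.7%), against 8.28% of all genes, and the reverse at 2 (2.67%), against 3.62%. A peak in WT and not in mdxTLR4-/- was found at 14 members (18.7%), against 7.13%, and the reverse at 2 (2.67%), against 4.59%. Between mdx and mdxTLR4-/-, 8 members (10.7%) had a peak in mdx and not in mdxTLR4-/-, against 4.95%, and 5 (6.67%) had the reverse, against 7.06%. These shares rest on how many genes had a peak to lose. Of the genes with a WT peak, 17.5% of 63 members and 25.1% of 6855 genes lacked one in mdx, and 22.2% and 21.6% lacked one in mdxTLR4-/-. Of those with an mdx peak, 14.8% of 54 members and 17.5% of 5887 genes lacked one in mdxTLR4-/-, and of those with an mdxTLR4-/- peak, 9.80% of 51 members and 23.2% of 6326 genes lacked one in mdx. So counted, the members' shares were not above those of all genes except from WT to mdxTLR4-/-, where they were close. The difference between these shares was not tested.

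Members whose peak was missing from a list had a lower median of WT reads. Those with a WT peak and none in mdx had a median of 12 WT reads (6 to 21, n = 11), and those with one in both had 17 (6 to 56, n = 52). For mdxTLR4-/- the medians were 12.5 (6 to 21, n = 14) and 18 (7 to 56, n = 49). The lists also differ in size, with 15665 H3K27ac peaks and 274020 reads in peaks for WT, 12076 and 191629 for mdx, and 12493 and 168487 for mdxTLR4-/-, the last from 1 library. Taking 12076 peaks by unscaled read density from each list left 58 (WT), 54 (mdx) and 50 (mdxTLR4-/-) members with a peak. The part of list size in the missing peaks was not tested.

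Single members ran either way. Rpl8, near the peptidyl transferase centre, had 21 reads in WT, 12 in mdx and no peak in mdxTLR4-/- BMDM. Of its WT reads, 11 lay in the peak over the start and 10 in a peak with its near edge 4278 bp upstream. Rps18, of the head of the small subunit, had 14 and 15 reads and no peak in mdxTLR4-/-, and Rpl35a had 15 and 13 and none. Rpl5 with 9 and 11 reads, Rpl13 with 14 and 6, and Rps15 with 11 and 6 likewise lacked a peak in mdxTLR4-/- alone. Rps7 had 21 reads in WT, no peak in mdx and 8 in mdxTLR4-/-. Rpl7 had 13, none and 10, and Rps14, which is lost in a human myelodysplastic syndrome, had 12, none and 6. The Rps14 peaks begin 2903 bp (WT) and 4703 bp (mdxTLR4-/-) downstream, and its start lay under a peak in no list. Rps14 is annotated at 31449 bp, against a member median of 3.37 kb, and the start of Ndst1 lies 1552 bp from its start. No promoter entry was used for Rps14, and whether its annotated start is the one used in these cells was not tested. In these 3 genes the mdx list alone lacked a peak within 5 kb.

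Rps28, at the mRNA exit of the small subunit, had 21 reads in WT in 2 peaks, of which the one over its start held 6, and no peak in the other lists. Its start is 10 bp from that of Ndufa7, a subunit of respiratory complex I, and that WT peak covered both. Rpl22, known for its role in T cell development, ran the other way, with no peak in WT, 19 reads in mdx and 8 in mdxTLR4-/- BMDM, in both cases over the start. Rpl3, a protein near the peptidyl transferase centre, had a peak in mdx alone, with 30 reads in 2 peaks. The larger of them, with 22 reads, lay over Syngr1 with its near edge 4133 bp upstream, and neither covered the start of Rpl3. Among the members as a whole, 31 of 75 (41.3%) had the start of another protein-coding gene within 5 kb, against 19.8% of all genes, so that a peak near the start need not belong to the member. This was so for 16 of the 45 members with a peak in all 3 lists, for 13 of the 21 with one in 1 or 2 lists and for 2 of the 9 with none.

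Summed over the members, the reads in peaks and the length of the peaks were both lower in mdx and mdxTLR4-/- than in WT, and the density differed less. The WT list held 1137 reads (exact Poisson 95% interval 1072 to 1205) in 71 peaks of 142.4 kb near the members, the mdx list 824 (769 to 882) in 56 peaks of 102.2 kb, and the mdxTLR4-/- list 629 (581 to 680) in 54 peaks of 88.6 kb. This came to 7.98, 8.06 and 7.10 reads per kb. The ratio of mdx to WT density was 1.01 (0.922 to 1.11) and that of mdxTLR4-/- to WT was 0.889 (0.805 to 0.981), with exact Clopper-Pearson 95% intervals that cover counting error and not the spread between mice. Library depth is unknown here, and the direction of the mdxTLR4-/- ratio depended on the scaling. Per 1000000 reads in peaks both ratios were above 1, at 1.44 and 1.45, and relative to the median ratio of all genes with the start under a peak in all 3 lists they were 1.14 and 1.04. As a share of all reads in peaks, with no regard to length, the members held 0.415% (exact Clopper-Pearson 95% interval 0.391% to 0.440%) in WT, 0.430% (0.401% to 0.460%) in mdx and 0.373% (0.345% to 0.404%) in mdxTLR4-/-, or 1.04 and 0.900 times the WT share.

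Peak by peak, the 32 members with the start under a peak in all 3 lists had a median unscaled density ratio of 1.07 from WT to mdx, with 17 higher (53.1%), 14 lower and 1 equal. The 2960 genes of the same kind had 0.886, with 37.6% higher. From WT to mdxTLR4-/- the medians were 0.971, with 13 members higher (40.6%) and 19 lower, and 0.857, with 34.9% of the genes higher. The median ratio of the members thus lay above that of all such genes in both comparisons, which share the WT list. Both sets were limited to starts under a peak in all 3 lists. In WT the members' peaks had a lower median density, 8.03 against 10.0 reads per kb. The part of this lower starting level in the ratios was not tested.

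The counting interval of the ratio left out 1 at 4 of 32 members in each comparison, against 18.2% of the 2960 genes of the same kind from WT to mdx and 17.2% from WT to mdxTLR4-/-. That is no larger a share than among those genes, and the intervals are not adjusted for the number of members, so the members below are described for their values. From WT to mdx, Rplp2 went from 6.82 to 20.0 reads per kb (ratio 2.93, 1.25 to 6.71), while its reads went from 15 to 12 and its peak from 2.20 to 0.600 kb. Rpl15 went from 5.56 to 13.3 reads per kb (2.40, 1.16 to 4.87) and Rpl7a from 5.67 to 12.1 (2.14, 1.03 to 4.47), also with shorter peaks and no more reads. In these 3 genes the density was higher on the same number of reads or fewer, in a shorter peak. Rplp0 at 1.51 and Rpl21 at 1.50 completed the 5 highest ratios, with intervals that held 1.

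The lowest ratio in mdx was that of Rpl27a, which had 26 reads in 2.00 kb in WT and 7 in 1.80 kb in mdx, or 13.0 and 3.89 reads per kb (ratio 0.299, 0.110 to 0.708). It had 10 reads in 1.60 kb in mdxTLR4-/- (ratio 0.481, 0.207 to 1.03). Rpl34 at 0.478, Rpl4 at 0.506, Rpl10a at 0.550 and Rpl32 at 0.578 followed, with intervals that held 1.

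From WT to mdxTLR4-/-, Rplp0 went from 2.65 to 8.33 reads per kb (ratio 3.15, 1.15 to 8.76) on 9 and 10 reads, with a peak of 3.40 kb in WT and 1.20 kb in mdxTLR4-/-. The next highest ratios were those of Rps6, the substrate of S6 kinase, at 1.99, Rpl29 at 1.96, Rpl37a at 1.80 and Rpl7a at 1.65, each with an interval that held 1. Among the lowest ratios, Rpl36 went from 11.0 to 3.00 reads per kb (0.273, 0.0828 to 0.805) on 11 and 6 reads. Rpl18 went from 11.6 to 6.00 (0.518, 0.318 to 0.828) on 51 and 30 reads in peaks of 4.40 and 5.00 kb. Rps29, a zinc finger protein of the small subunit, went from 20.6 to 10.9 (0.529, 0.299 to 0.922), and Rpl23 stood at 0.397 (0.104 to 1.32). Of the 5 lowest ratios, those of Rpl18 and Rps29 rested on the most reads. The Rpl18 peak also covered the start of Sphk2, 2545 bp away, in every list. Rpl18 was named above for its WT reads, so its lower density in mdxTLR4-/- is not read further.

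**Figure D4:**
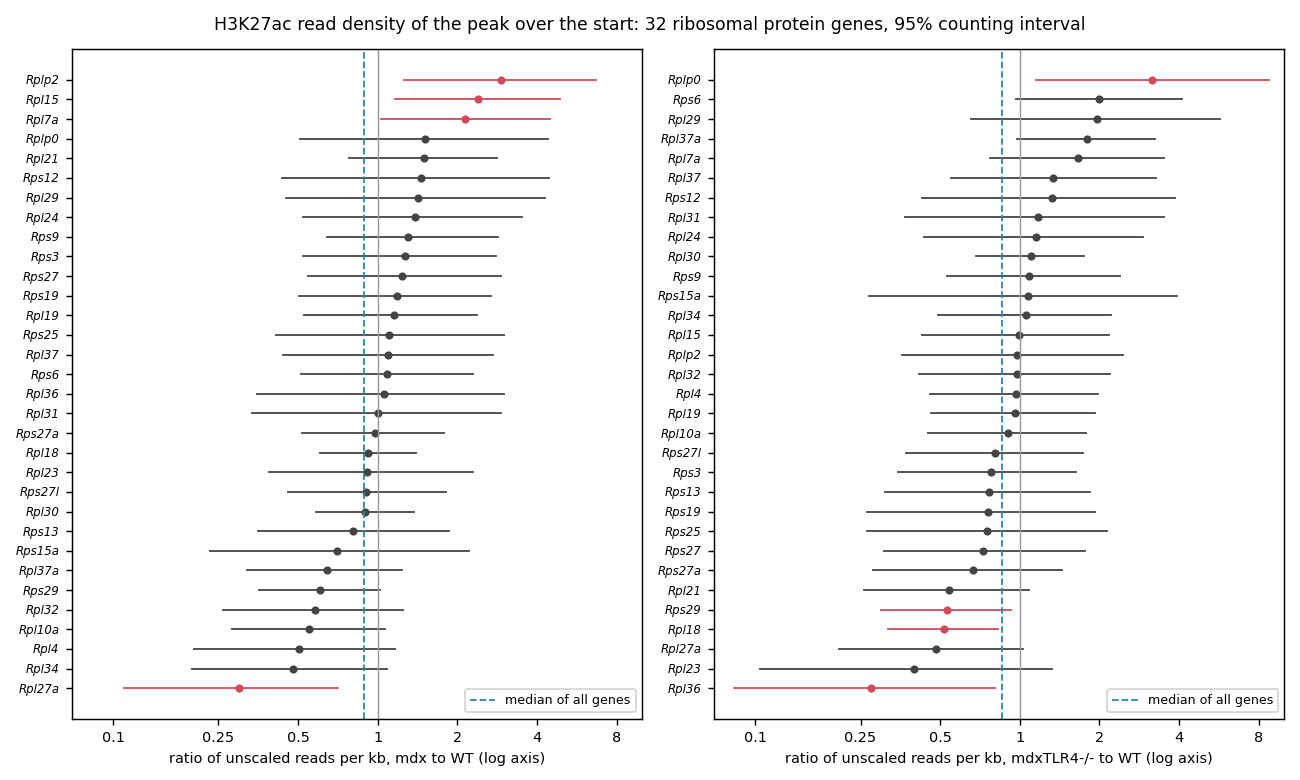
Ratio of unscaled H3K27ac reads per kb in the peak over the start (horizontal log axis) from WT to mdx (left) and from WT to mdxTLR4-/- (right) for the 32 members with such a peak in all 3 lists, with 95% counting intervals as bars, in red where they leave out 1, and the median of all 2960 genes of the same kind as a dashed line. The intervals of 4 members in each panel leave out 1.

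H3K27me3 peaks did not reach the starts of the members. No member had its start under an H3K27me3 peak in any of the 3 lists, against 24.5% (WT), 24.7% (mdx) and 23.6% (mdxTLR4-/-) of all genes. The 8180 other genes chosen for an H3K27ac peak in at least 1 list were much nearer the members. In the 200 bp bin centred 100 bp downstream of the start, H3K27me3 covered 3.69%, 3.18% and 3.17% of them and no member. No member had at least 50% of its window covered, from 5 kb upstream of the gene to 1 kb past its end, against 17.5%, 17.1% and 15.6% of all genes. Any coverage of the window was found at 11 members in WT (14.7%), 12 in mdx (16.0%) and 10 in mdxTLR4-/- (13.3%), against 40.1%, 42.9% and 40.5%. In at least 1 list it was found at 14 members (18.7%), against 46.3%. The H3K27me3 lists differ in size, with 28143 peaks and 8331331 reads in peaks for WT, 41780 and 10199918 for mdx, and 36488 and 7358418 for mdxTLR4-/-. With 28143 peaks taken from each list, 11 (WT), 10 (mdx) and 9 (mdxTLR4-/-) members had any coverage. The mean coverage of a member window was 3.07%, 3.19% and 2.48%, against 18.4%, 18.2% and 16.8% over all genes. The windows of members are shorter, since the median member spans 3.37 kb and the median gene 17.6 kb, and the part of length in the counts of any coverage was not tested.

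The nearest H3K27me3 peak was still not remote. It lay a median of 14.4 kb from the start of a member in WT, 13.2 kb in mdx and 15.4 kb in the mdxTLR4-/- list, against 19.5, 14.4 and 17.9 kb over all genes. Where a member window was covered, the peak mostly lay upstream: the gene body was touched at 1 member in WT, 2 in mdx and 3 in mdxTLR4-/-. Both an H3K27ac peak and some H3K27me3 coverage were found at 9 members in WT (12%), 7 in mdx (9.33%) and 6 in mdxTLR4-/- (8%), against 6.2%, 5.45% and 5.45% of all genes. These shares rest on how many genes had an H3K27ac peak. Of those with one, 9 of 63 members and 1290 of 6855 genes in WT had both marks. In mdx these were 7 of 54 and 1135 of 5887, and in mdxTLR4-/- 6 of 51 and 1135 of 6326. So counted, the members' share was below that of all genes in each list, a difference that was not tested.

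**Figure D5:**
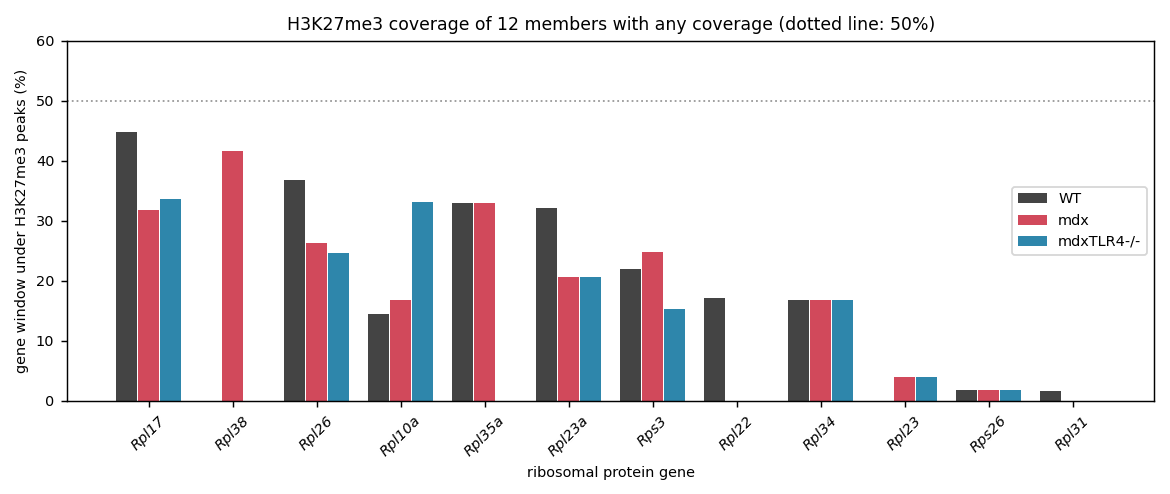
Percent of the gene window under H3K27me3 peaks (vertical axis) for 12 of the 14 members with any coverage, by merged list (WT grey, mdx red, mdxTLR4-/- blue), with a dotted line at 50%. No bar reaches 50%, the highest is Rpl17 in WT at 44.7%, and Rpl38 has a bar in mdx alone, at 41.6%.

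Rpl17, a protein at the exit of the peptide tunnel, had the highest coverage, 44.7% (WT), 31.8% (mdx) and 33.7% (mdxTLR4-/-). The peak was a domain of 71.6 kb in WT over Lipg, the gene of endothelial lipase, that ended 158 bp before the start of Rpl17 in WT, 1558 bp before it in mdx and 1358 bp before it in mdxTLR4-/-. Rpl26 had 36.8%, 26.3% and 24.5%, from a peak that ended 583 bp before its start in WT and mdx and 783 bp before it in mdxTLR4-/-. Both peaks stopped short of the start.

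Rpl38, whose loss is known to alter the axial skeleton of mice, was covered in mdx alone, at 41.6%, by a peak of 150 reads that ran from 6723 to 924 bp upstream of the start. In the other lists its nearest H3K27me3 peak lay 9124 bp (WT) and 12524 bp (mdxTLR4-/-) away. The mdx list is the largest of the H3K27me3 lists, and the part of list size in this difference was not tested. Rpl22 was covered in WT alone, at 17.2%, by a domain over Rnf207 that ended 2542 bp before its start, and WT was also the list in which it had no H3K27ac peak. Rpl35a had 32.9% in WT and in mdx, from a peak within Iqcg, and none in mdxTLR4-/-, the list in which it had no H3K27ac peak.

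Rpl10a had its coverage downstream of the start, at 14.4% (WT), 16.7% (mdx) and 33.1% (mdxTLR4-/-), from a domain over Tead3 and Tulp1. The edge of this domain lay 2330 bp past the Rpl10a start in WT, 2130 bp past it in mdx and 730 bp past it in mdxTLR4-/-. Rpl10a kept H3K27ac throughout, with 22, 19 and 17 reads. Rpl23a had 32.2%, 20.6% and 20.6%, Rps3 had 22.0%, 24.8% and 15.2%, and Rpl34 had 16.7% in each list. No direction was shared by the covered members named here.

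Other lists of translation genes were counted in the same way. Of 78 genes of mitochondrial ribosomal proteins, 40 had an H3K27ac peak in WT (51.3%), 36 in mdx (46.2%) and 37 in the mdxTLR4-/- list (47.4%). Of 65 genes of translation initiation and elongation factors, 39 (60%), 41 (63.1%) and 37 (56.9%) had one. Of 8 autosomal ribosome genes outside the symbol rule, 7, 5 and 7 had one, among them Fau with 9, 9 and 11 reads. Of the 4 X-linked genes, 3, 3 and 2 had one. H3K27me3 lay over the start of 0, 1 and 0 mitochondrial ribosomal protein genes and touched the window of 13, 15 and 16 (16.7%, 19.2% and 20.5%). Of the translation factor genes, 4 in each list had the start covered, and 15, 16 and 13 had some coverage (23.1%, 24.6% and 20%). The absence or near absence of H3K27me3 at the start was thus shared by the mitochondrial ribosomal protein genes.

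The pseudogenes of ribosomal proteins mostly carried neither mark at the start. Of 250 on the autosomes, named by the same pattern followed by ps, 31 had an H3K27ac peak within 5 kb in WT (12.4%), 20 in mdx (8.00%) and 19 in mdxTLR4-/- (7.60%), but the start itself lay under one at 2, 1 and 1. H3K27me3 covered the start of 46, 48 and 39 pseudogenes (18.4%, 19.2% and 15.6%), against 24.5%, 24.7% and 23.6% of all protein-coding genes, and of no member. The pseudogenes span a median of 0.463 kb and the members 3.37 kb.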

How the data were processed

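ChIP-seq of H3K27ac and H3K27me3 in untreated BMDM was available as 6 peak lists, 1 for each mark and genotype. As the methods and the submitters' processing notes describe, the authors trimmed reads (cutadapt 1.15), mapped them to mm10 (Bowtie2 2.3.4), merged replicates and called peaks with SICER 2.0 (window 200 bp, gap 600 bp, FDR 0.01). The deposited value of a peak is a count of ChIP reads, not scaled and without input subtraction. In these lists counts range from 5 reads in the smallest H3K27ac peaks, so intervals of single members are wide, and library depth is unknown.

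Computed here were peaks that overlap 5 kb either side of the GENCODE vM21 gene start by at least 1 bp, with all reads of such a peak, and the share of the H3K27me3 window under peaks. Poisson and Clopper-Pearson intervals are at the 95% level and cover counting error only. With 1 list per group no test was run. The genes and lists were chosen with earlier results of these data known. Named were the paralogs whose symbol ends in l, the stalk genes, of the 30 members lacking an H3K27ac peak in some list the 12 with the most reads, the 10 with the highest H3K27me3 coverage among those with at least 10%, the 5 with the most and with the fewest WT reads, and the 5 highest and lowest density ratios in each comparison. Some genes that these rules pick are not reported here. Sequences are those of RefSeq on GRCm38.p6. The measures were checked on simulated peak lists with known presence and coverage. Alternatives were other windows, starts, read minimums, scalings and memberships. Computation was in Python 3.11.15 (pandas 2.3.3, numpy 2.4.6, matplotlib 3.10.9, scipy 1.17.1). Signal tracks and inputs were not analysed here.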

Additional observations from a re-analysis of the deposited data

How the results depend on the processing

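Of 55 alternative values, 43 kept the direction of the main value and stayed within 1.5 times of a count or within the counting interval of a ratio. With peaks of at least 10 reads, 29 members kept an H3K27ac peak in mdxTLR4-/- in place of 51, while WT had 50 and mdx 40. With the gene body alone as the window, 1 member in WT, 2 in mdx and 3 in mdxTLR4-/- had H3K27me3, and within 1 kb of the start 2 had it in each list. The density ratio of mdx to WT moved from 1.01 to 1.44 per 1000000 reads in peaks and to 1.14 relative to the median of all genes. That of mdxTLR4-/- to WT moved from 0.889 to 1.45 and to 1.04 under the same scalings, which turned its direction, and to 0.778 when each list was scaled by its 1st percentile of density. Which scaling reflects depth was not tested. No paired analysis was possible because the lists were called on merged replicates, and for the same reason the alternative of leaving out each replicate was not run. Low counts limit the single members: 12 of the 63 with a WT peak had fewer than 10 reads within 5 kb, as did 14 of 54 in mdx and 21 of 51 in mdxTLR4-/-.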
